A study of Drosophila melanogaster with 18 samples.

Results

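The effect of a dominant negative Tip60 on the transcriptome of Drosophila melanogaster wing imaginal discs was compared between 48 h and 78 h of transgene expression. Wing discs are the larval epithelial sacs that form the adult wing and notum, and they were taken from wandering larvae of the last instar. The comparison used 12 of the 18 libraries of the series, 3 in each of 4 groups: control 48 h, Tip60dn 48 h, control 78 h and Tip60dn 78 h. For every gene, the Tip60dn to control log2 fold change at 48 h was subtracted from that at 78 h, so that shifts common to all libraries of a duration cancel. Of 17559 genes counted, 10905 passed the filter on low counts and were tested. The remaining 6 libraries, with a wild type Tip60 transgene, served only for values set beside these genes.

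All groups shared 1 treatment. A heat shock at 37 °C for 30 min produced overlapping clones, the transgene was held off at 18 °C, and a shift to 28 °C for the last 48 h or 78 h before dissection turned it on. Discs of every group are therefore mosaics, and the driver of the transgene, the share of cells carrying it, the sex of the larvae and the make-up of the control genotype are not stated in the labels. Each library pooled 40 discs from homogenates of 20 discs. Nothing in the labels says whether libraries of a group came from separate crosses, so p-values measure the spread between these libraries.

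Tip60 is the catalytic subunit of the NuA4 complex, which acetylates histones H4 and H2A variants and exchanges histone variants at chromatin. It acts in transcription and in the repair of broken DNA. Wing disc cells proliferate through most of the last larval instar, and many of their regulators of growth, patterning and stress are well described.

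The libraries held 65277725 to 105716567 counts, and TMM scaling factors (trimmed mean of M values) lay between 0.979 and 1.02. The first principal component held 43.4% of the variance and separated all 6 Tip60dn libraries from all 6 control libraries. On the second, with 14.6%, Tip60dn 78 h replicate 2 stood lowest (-53.0) and Tip60dn 48 h replicate 3 highest (38.4). The third, with 8.10%, separated the durations. Tip60dn 78 h replicate 2 had 58 genes at 5 CPM (counts per 1000000 scaled counts) or more and at least 4-fold above both other libraries of its group, control 78 h replicate 1 had 24, and no other library had more than 11. The 13 wing disc markers were all detected, with a summed level of 4948 to 5484 CPM at 48 h and 5046 to 5677 CPM at 78 h.

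The transgene was expressed at both durations. Tip60 itself (FBgn0026080, chromosome X, 4114800 to 4117487, BDGP6) was counted at 30.8, 34.3 and 35.6 CPM in the 48 h controls and at 3362, 3286 and 2494 CPM in the 48 h Tip60dn libraries. At 78 h it stood at 33.3, 44.6 and 38.4 CPM in the controls and at 1638, 2172 and 2435 CPM in the Tip60dn libraries. Each Tip60dn library at 78 h was below each at 48 h, and all lay far above the controls. The effect was 6.50 log2 at 48 h and 5.75 log2 at 78 h, and the difference of -0.76 (SE 0.22, 95% interval -1.24 to -0.28) did not pass the test after adjustment (edgeR quasi-likelihood, adjusted p = 0.542). Endogenous and transgene counts cannot be separated, both transgenes of the series carry Tip60 sequence, and the antisense gene tyf covers 21.0% of its exon bases. Every difference between durations below comes from discs whose mean Tip60 count also differed in this way, and the part of that level in them was not tested.

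Tip60dn and control discs differed in much the same genes at both durations, and no gene passed the test of a difference between durations. The make-up of the control is not given. Effects of the line, of added Tip60 and of its dominant negative form therefore cannot be told apart in this comparison. At 48 h, 4611 genes were called at an adjusted p under 0.05 (42.3% of those tested), 2351 higher (21.6%) and 2260 lower (20.7%). At 78 h, 4856 genes were called (44.5%), 2489 higher (22.8%) and 2367 lower (21.7%). Of these, 3653 genes were shared with 1 direction (33.5%), 1797 higher (16.5%) and 1856 lower (17%). They made up 79.2% of the 48 h calls and 75.2% of the 78 h calls. The 2 sets of calls share no library, although all 12 libraries share 1 estimate of the spread.

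In the test of the difference, 0 of 10905 genes were called with edgeR (0%), and the smallest adjusted p was 0.447. At an unadjusted p under 0.05 there were 792 genes (7.26%), 377 with a higher effect at 78 h (3.46%) and 415 with a lower one (3.81%). Limma-voom also called 0 genes, and DESeq2 called 22 (0.202%), 14 higher and 8 lower, with 757 genes at an unadjusted p under 0.05. Without Tip60dn 48 h replicate 3, edgeR called 4 genes, Men, Pfk, Grx3 and Cul2, each with a lower effect at 78 h.

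Depth and spread allowed modest limits for the better expressed genes and none of use for the rest. Of 7063 genes averaging 5 CPM or more in their highest group, 6248 (88.5%) had a 95% interval of the difference inside -0.5 to 0.5 log2, against 6295 (57.7%) of all genes tested. The median half-width of that interval was 0.175 log2 for these genes and 1.37 log2 for genes under 5 CPM. Among the 3653 genes called in the same direction, 2702 (74.0%) had an interval inside 0.5 log2 either way. Their effects were no larger after the longer expression: 1835 (50.2%) were larger at 78 h and 1818 at 48 h, and the median absolute effect was 0.34 log2 at both durations. Choosing genes called at both durations favours like effects, so these values are a description of those genes only.

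Calls made at a single duration rarely went with an effect of the other sign. Of 953 genes called at 48 h alone, 868 (91.1%) had the same sign at 78 h, and of 1198 genes called at 78 h alone, 1068 (89.1%) had the same sign at 48 h. Across the 7063 genes at 5 CPM or more, the effects at the 2 durations had a Pearson r of 0.61 and a Spearman rho of 0.87, given as a description, since genes of 1 library share its depth and its discs. A 2-fold rise or more passed the test for 763 genes at 48 h and 918 at 78 h, of which 543 were shared, and a 2-fold fall or more for 107 and 99, of which 54 were shared.

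**Figure D1:**
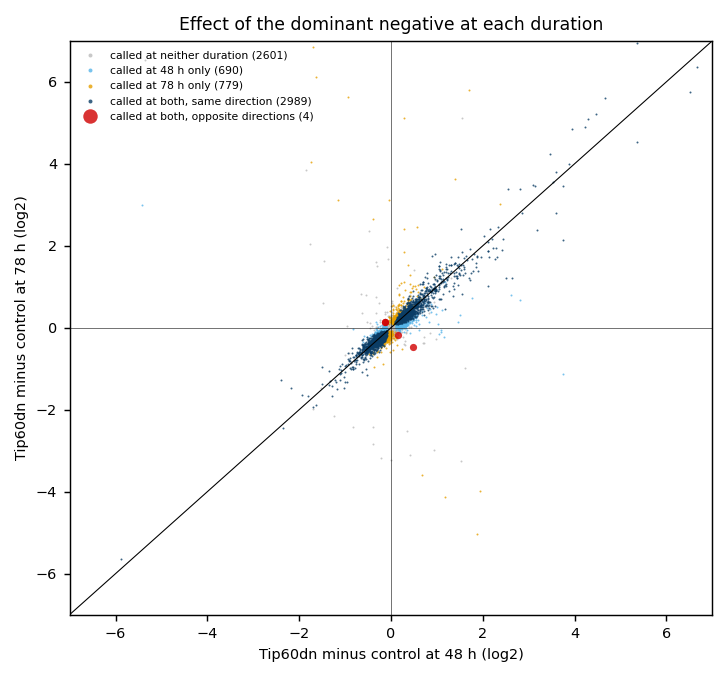
Tip60dn minus control effect at 48 h (x axis, log2) against 78 h (y axis, log2) for 7047 of the 7063 genes with at least 5 CPM in the highest group, coloured by where they were called; 16 genes lie outside the axes of -7 to 7 and the line marks equal effects. Most called genes lie along the line, and only 4 points, in red near the origin, were called in opposite directions.

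The next 6 genes had the largest effects among those called in 1 direction at both durations with an interval of the difference inside 0.5 log2 either way. That choice fixes their likeness between durations, so their values are a description. Appl (FBgn0000108, X), the amyloid precursor-like protein of neurons, was counted at 2.90, 2.91 and 3.26 CPM in the 48 h controls and at 14.4, 13.3 and 13.8 CPM in the 48 h Tip60dn libraries. At 78 h its counts were 3.19, 3.43 and 2.76 CPM in the controls and 13.1, 13.6 and 15.1 CPM with Tip60dn. The groups did not overlap at either duration, and Appl rose by 2.19 log2 (SE 0.09, adjusted p = 8.8e-08) and by 2.15 log2 (SE 0.09, adjusted p = 8.09e-08). The difference was -0.04 log2, with an interval from -0.33 to 0.25.

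CG15546 (FBgn0039807, 3R), a gene without a described function here, rose from 11.7 ± 0.770 to 36.5 ± 1.62 CPM at 48 h and from 11.5 ± 1.03 to 38.7 ± 3.16 CPM at 78 h (mean ± SD, n = 3, as for all such values below). Its difference was 0.11 log2 with an interval from -0.13 to 0.36. Spn42Db (2R), of the serpin family of protease inhibitors, rose by 1.80 log2 at 48 h and 1.79 log2 at 78 h, but 25.6% of its exons lie opposite asRNA:CR44169, so its counts are uncertain. Similar rises at both durations were seen in the noncoding RNA genes lncRNA:CR45973 (1.72 and 1.91 log2) and lncRNA:CR44677 (1.86 and 1.74 log2), both on chromosome 3L.

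One of these bounded genes fell. CG17186 (FBgn0038741, 3R) stood at 40.2, 40.4 and 37.2 CPM in the 48 h controls against 12.2, 11.0 and 10.4 CPM with Tip60dn, and at 35.7, 35.1 and 35.9 CPM against 11.6, 10.2 and 12.1 CPM at 78 h. It fell by 1.81 log2 and 1.66 log2 (adjusted p = 7.02e-08 and 8.09e-08), and the groups did not overlap. With the wild type transgene it was as low, at 9.70 ± 0.661 and 10.0 ± 0.959 CPM.

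**Figure D2:**
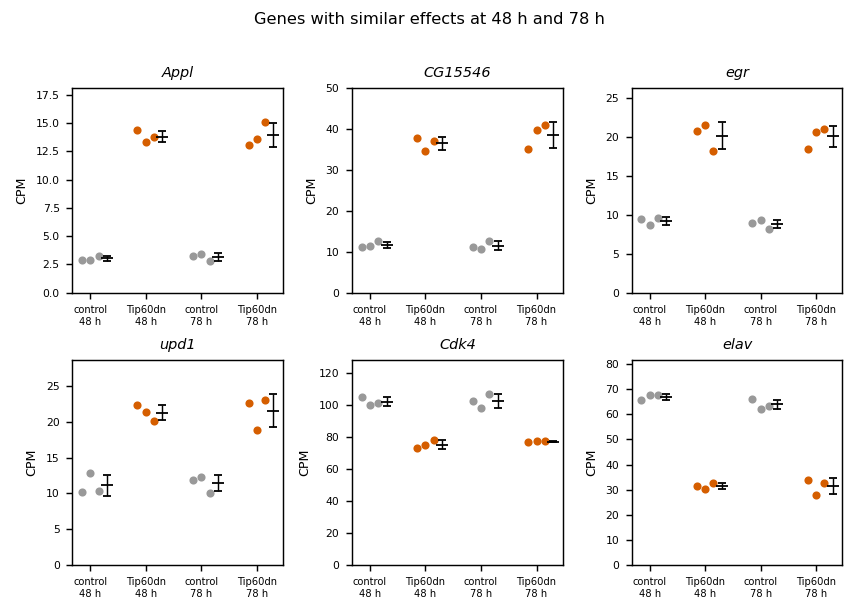
CPM of 6 genes in each library (points, grey for control and orange for Tip60dn), with the mean and SD of 3 libraries as a bar beside them; the y axes start at 0. In each panel the Tip60dn libraries lie on the same side of the controls at 48 h and 78 h, above for Appl, CG15546, egr and upd1 and below for Cdk4 and elav.

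Many cell cycle genes were lower in Tip60dn discs after 48 h and stood at about the same distance from the controls after 78 h. In bulk discs, fewer cells of a type and less RNA per cell cannot be told apart. Of 48 mitosis genes tested, 36 fell at 48 h and 38 at 78 h, 32 of them at both, and 1 rose at each, where 20.7% and 21.7% of all genes tested fell and 17% fell at both. The median effect of the list was -0.28 log2 at both durations, against 0.03 and 0.04 over all genes tested, and all 48 had an interval of the difference inside 0.5 log2 either way. Securin, encoded by pim (2L), was counted at 44.0, 43.5 and 45.2 CPM against 36.9, 36.5 and 35.4 CPM at 48 h, and at 45.5, 43.6 and 45.9 CPM against 33.9, 37.5 and 37.5 CPM at 78 h. It fell by 0.29 and 0.31 log2 (adjusted p = 4.03e-04 and 2.36e-04) with no overlap of the groups. Cdk1, the kinase that drives entry into mitosis, gave the smallest unadjusted p of the list, with a fall of 0.16 log2 at 48 h and 0.33 log2 at 78 h and a difference of -0.16 (interval -0.28 to -0.05, edgeR adjusted p over all genes = 0.591).

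Many S phase genes also fell at both durations, with a slightly lower median effect at 78 h. Of 39 replication genes, 21 fell at 48 h and 25 at 78 h, 20 at both (20.7%, 21.7% and 17% of all genes), and the median effect was -0.15 and -0.21 log2. The difference was below 0 for 28 of them, with 2 at an unadjusted p under 0.05: PolD1, the catalytic subunit of polymerase delta (-0.15 log2), and PolE2, a subunit of polymerase epsilon (-0.18 log2). Of 19 regulators of the G1 to S transition, 13 fell at each duration (20.7% and 21.7% of all genes), 12 at both, and 0 had an unadjusted p under 0.05 for the difference.

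Among the regulators, Cdk4, the partner of cyclin D, was 105, 100 and 101 CPM in the 48 h controls against 72.8, 74.8 and 78.1 CPM with Tip60dn, and 102, 98.0 and 107 CPM against 76.6, 77.2 and 77.5 CPM at 78 h. It fell by 0.44 and 0.41 log2, with a difference of 0.03 (interval -0.09 to 0.15). CycE, the cyclin that starts S phase, fell by 0.26 log2 at 48 h (adjusted p = 0.00234) and 0.20 log2 at 78 h (adjusted p = 0.0103). The Cdk2 inhibitor dap fell by 0.25 log2 at both durations, from 144 ± 9.63 to 122 ± 4.86 CPM and from 144 ± 4.14 to 122 ± 7.37 CPM. E2f1, the activating E2F, rose by 0.14 log2 at 48 h (adjusted p = 0.0239) and 0.21 log2 at 78 h (adjusted p = 0.00252), and the 48 h call was lost on leaving out Tip60dn replicate 1 or 3 or control replicate 1 or 2 of 48 h (adjusted p = 0.0683 to 0.0856). The Cdc25 phosphatase gene stg did not pass at either duration, with effects of 0.06 and 0.03 log2 and an interval of the difference from -0.23 to 0.17. In its list of 18 G2 to M and APC/C genes, 5 fell and 3 rose at 48 h, and 8 fell and 3 rose at 78 h. Of all genes, 20.7% and 21.7% fell and 21.6% and 22.8% rose. The median effect of this list was -0.07 log2 at both durations.

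Some genes of cell death and stress signalling rose at both durations, while other members of these lists fell or did not pass. The killer gene rpr (3L), which releases caspases from Diap1, was counted at 17.7, 19.5 and 16.9 CPM against 26.5, 27.3 and 25.7 CPM at 48 h and at 19.5, 18.7 and 19.3 CPM against 29.5, 25.6 and 23.8 CPM at 78 h. It rose by 0.56 log2 (adjusted p = 1.92e-04) and 0.46 log2 (adjusted p = 6.4e-04) with no overlap, and the difference was -0.10 (interval -0.34 to 0.14). Diap1, the caspase inhibitor, rose by 0.92 and 0.86 log2. The TNF ligand gene egr (2R) rose from 9.23 ± 0.510 to 20.2 ± 1.76 CPM and from 8.79 ± 0.537 to 20.0 ± 1.39 CPM, by 1.13 and 1.19 log2. Of the 20 apoptosis genes tested, 7 rose and 3 fell at 48 h and 8 rose and 3 fell at 78 h, and 0 had an unadjusted p under 0.05 for the difference. Of all genes tested, 21.6% rose and 20.7% fell at 48 h and 22.8% rose and 21.7% fell at 78 h.

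The JAK/STAT ligand gene upd1 (X) rose from 10.2, 12.8 and 10.4 CPM to 22.4, 21.4 and 20.2 CPM at 48 h, and from 11.8, 12.2 and 10.1 CPM to 22.7, 18.9 and 23.2 CPM at 78 h. The groups did not overlap, and the rise of 0.93 and 0.92 log2 gave a difference of -0.01 (interval -0.34 to 0.32). For its sister ligands 1 control library stood apart. In the 48 h controls upd2 was counted at 0.458, 5.06 and 0.538 CPM and upd3 at 0.860, 4.91 and 0.865 CPM, with replicate 2 high in both, and neither gene passed at 48 h (adjusted p = 0.641 and 0.841) or at 78 h (0.107 and 0.204). Without control 48 h replicate 2, both genes passed at 48 h, at 2.57 log2 for upd2 (adjusted p = 0.0172) and 1.52 log2 for upd3 (adjusted p = 0.00251). Both also passed at 78 h (adjusted p = 0.0241 and 0.0115), where the effects stayed at 1.96 and 0.94 log2 and only the shared estimate of the spread changed. At 48 h, upd2 was called in 1 of 19 alternatives and upd3 in 1 of 20. Leaving out 1 library in turn gave 48 h effects of -0.66 to 2.57 log2 for upd2 and -0.22 to 1.52 log2 for upd3.

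The same control library was high for Ilp8, the relaxin-like hormone by which damaged discs delay pupariation, at 2.54 CPM beside 0.190 and 0.199 CPM. The Tip60dn libraries held 5.64, 8.11 and 1.5 CPM at 48 h and 4.40, 1.37 and 1.32 CPM at 78 h, against 0.202, 0.426 and 0.251 CPM in the 78 h controls. Ilp8 rose by 3.00 log2 at 78 h (adjusted p = 0.0302), a call that did not hold when Tip60dn 78 h replicate 1 was left out (2.16 log2, adjusted p = 0.115), or any 1 of the 78 h controls (adjusted p = 0.0579 to 0.0961). At 48 h its effect of 2.38 log2 did not pass (adjusted p = 0.0631), and without control 48 h replicate 2 it was 4.70 log2 (adjusted p = 0.00184). Ilp8 was called at 48 h in 7 of 21 alternatives, among them DESeq2 (adjusted p = 0.0472) and limma-voom (adjusted p = 0.0349). At 78 h it was called in 16 of 21, but not in limma-voom (adjusted p = 0.107). The difference between durations was 0.63 log2, with an interval from -2.27 to 3.54, and became -1.70 log2 without that control library.

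Of 23 JNK and regeneration genes, 9 rose and 1 fell at 48 h and 11 rose and 1 fell at 78 h, where 21.6% and 22.8% of all genes rose. Mmp1, a matrix metalloproteinase, rose by 0.29 log2 (adjusted p = 0.0336) and 0.49 log2 (adjusted p = 0.00183), and at 48 h it did not pass on leaving out Tip60dn 48 h replicate 2 (adjusted p = 0.153) or control 48 h replicate 1 or 3 (0.13 and 0.0701). The JNK phosphatase gene puc, a common reporter of JNK activity, did not pass at either duration, with effects of -0.02 and 0.25 log2 and a difference of 0.28 (interval -0.11 to 0.67). Xrp1, a stress-response transcription factor of the loser state in cell competition, rose by 0.69 and 0.62 log2 (adjusted p = 4.06e-04 and 7.69e-04). In its list of 12 genes 7 rose and 1 fell at each duration (21.6% and 22.8% of all genes rose). Thor, which encodes the translation inhibitor 4E-BP, rose at 48 h by 1.03 log2 (adjusted p = 0.0147) and stood 0.10 log2 above the controls at 78 h (adjusted p = 0.809). The 48 h libraries with Tip60dn held 16.9, 17.6 and 8.52 CPM of Thor, and it no longer passed with replicate 1 left out (adjusted p = 0.0558) or replicate 2 (0.0603).

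In the lists of protein turnover and synthesis, most members had a slightly lower effect at 78 h, and no member passed the test of the difference. All 32 proteasome subunits fell at both durations, with a median effect of -0.26 log2 at 48 h and -0.34 log2 at 78 h, where 17% of all genes fell at both. The effect was lower at 78 h for 32 of 32, with differences between -0.17 and -0.0046 log2 and a median of -0.08. The example Prosbeta5 (2R), a catalytic subunit, was counted at 221, 209 and 204 CPM against 183, 172 and 175 CPM at 48 h, and at 218, 214 and 222 CPM against 175, 179 and 163 CPM at 78 h. It fell by 0.26 log2 (adjusted p = 6.58e-04) and 0.34 log2 (adjusted p = 1.13e-04), a difference of -0.08 whose interval ran from -0.21 to 0.06. Members of a list share their libraries, so a common shift of this size is not evidence from 32 separate measurements.

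Cytosolic ribosomal protein genes rose. Of 83 tested, 74 rose at 48 h and 69 at 78 h, 68 at both (21.6%, 22.8% and 16.5% of all genes), with a median effect of 0.29 and 0.22 log2, and the effect was lower at 78 h for 77 of 83, by a median of -0.07. RpL3 rose from 3178 ± 187 to 3703 ± 93.7 CPM and from 3117 ± 121 to 3696 ± 16.4 CPM, by 0.22 and 0.25 log2. It was 1 of 6 members whose effect was not lower at 78 h. Of 70 mitochondrial ribosomal protein genes, 21 rose and 6 fell at 48 h (21.6% and 20.7% of all genes) and 7 rose and 15 fell at 78 h (22.8% and 21.7% of all genes), so that the share that fell at 78 h was near that of all genes, and the effect was lower at 78 h for 59 of 70. An example is mRpS14, with 32.0% of its exons opposite Naa15-16. It stood at 11.4 ± 0.481 and 11.6 ± 0.743 CPM at 48 h and at 13.4 ± 0.387 and 10.6 ± 0.625 CPM at 78 h, for control and Tip60dn. For this gene the 78 h controls were also higher than the 48 h controls.

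Of 31 nucleolar and ribosome biogenesis genes, 15 fell at 48 h and 24 at 78 h (20.7% and 21.7% of all genes), and 0 passed the test of the difference. The list had a median effect of -0.13 and -0.27 log2, and the effect was lower at 78 h for 30 of 31. An unadjusted p under 0.05 was reached by 7 of 31 (22.6%), all lower at 78 h, against 3.81% of all genes. Nnp-1 (2L), a ribosome biogenesis factor, was counted at 193, 196 and 170 CPM against 257, 248 and 208 CPM at 48 h and at 196, 188 and 193 CPM against 193, 184 and 182 CPM at 78 h. Only the 48 h groups were apart, and Nnp-1 rose there by 0.35 log2 (adjusted p = 0.00281), while its 78 h effect was -0.05 log2 (adjusted p = 0.638). The difference of -0.40 log2 (interval -0.62 to -0.17) did not pass after adjustment (adjusted p = 0.542).

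Polr1C, a subunit shared by RNA polymerases I and III, stood at 30.4 ± 0.182 and 29.5 ± 0.746 CPM at 48 h and at 32.0 ± 0.939 and 26.6 ± 0.765 CPM at 78 h. It fell by 0.27 log2 at 78 h (adjusted p = 2.93e-04), and the difference was -0.22 log2 (interval -0.35 to -0.10, adjusted p = 0.542). Nopp140, a nucleolar scaffold protein, fell by 0.22 and 0.34 log2. In the respiratory chain list 23 of 70 fell at 48 h and 32 at 78 h (20.7% and 21.7% of all genes), and the effect was lower at 78 h for 60. The median difference of the proteasome, nucleolus, both ribosomal protein and respiratory chain lists kept its sign under 21 of 21 alternative settings. Many other lists kept theirs too: 28 of all 48 lists changed sign under some setting. The settings reuse the same libraries, so a kept sign does not set these lists apart. Over all genes tested the median difference was 0.00 log2.

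**Figure D3:**
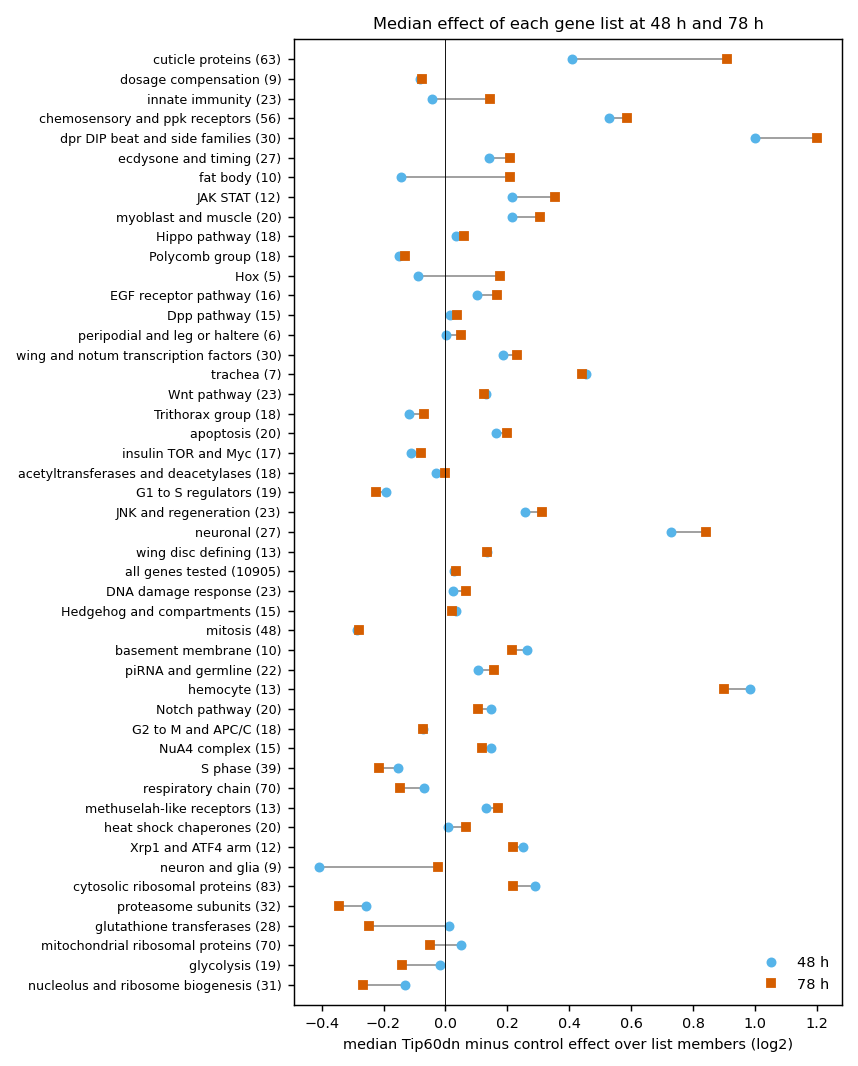
Median Tip60dn minus control effect (log2) over the tested members of each gene list, whose number stands in parentheses, at 48 h (circles) and 78 h (squares), ordered by the median difference between durations; the salivary gland list is left out because 1 library sets its value. The squares of the nucleolus, glycolysis and proteasome lists lie to the left of their circles, while the mitosis, G1 to S and wing disc lists have squares and circles close together.

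Glycolysis held the largest share of members at an unadjusted p under 0.05 among the biology lists, and all of them had a lower effect at 78 h. Of 19 genes tested, 8 reached it (42.1%, against 3.81% of all genes), and 0 passed after adjustment. At 48 h 3 rose and 7 fell, and at 78 h 2 rose and 10 fell (20.7% and 21.7% of all genes fell), with a median difference of -0.11 log2. The enzymes given in the next paragraphs, and those of other metabolic steps, were chosen after their values were seen.

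Pfk (FBgn0003071, 2R), phosphofructokinase, the committed step of glycolysis, was counted at 154, 155 and 165 CPM in the 48 h controls and 169, 165 and 135 CPM with Tip60dn. At 78 h it stood at 151, 169 and 156 CPM in the controls and at 106, 109 and 99.4 CPM with Tip60dn. The groups overlapped at 48 h and were far apart at 78 h, where the 3 Tip60dn libraries were the lowest of all 12. The effect was -0.02 log2 at 48 h (adjusted p = 0.883), and at 78 h Pfk fell by 0.60 log2 (adjusted p = 1.05e-04). The difference of -0.58 (SE 0.11, interval -0.82 to -0.35) gave an adjusted p of 0.447 in edgeR, 4.82e-04 in DESeq2 and 0.0146 in edgeR without Tip60dn 48 h replicate 3. Leaving out any 1 library gave -0.68 to -0.52 log2. Between the Tip60dn groups themselves Pfk fell by 0.58 log2 from 48 h to 78 h (adjusted p = 0.0396).

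Both genes of glyceraldehyde-3-phosphate dehydrogenase, which are close paralogs whose reads may be divided between them, fell at each duration. Gapdh1 (2R) stood at 234 ± 4.05 and 195 ± 8.33 CPM at 48 h and at 260 ± 7.16 and 174 ± 9.56 CPM at 78 h, and Gapdh2 (X) at 595 ± 37.1 and 502 ± 18.3 CPM and at 637 ± 6.21 and 438 ± 17.2 CPM. The Tip60dn libraries lay below the controls at both durations, and the gap was wider at 78 h, where the Tip60dn level was lower and the control level higher than at 48 h. The fall was 0.26 log2 and 0.58 log2 for Gapdh1 and 0.25 log2 and 0.54 log2 for Gapdh2. The difference was -0.32 log2 for Gapdh1 (interval -0.46 to -0.18) and -0.29 log2 for Gapdh2 (interval -0.44 to -0.14), with an adjusted p of 0.447 and 0.542 in edgeR and 0.0106 and 0.0371 in DESeq2.

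Enolase, encoded by Eno (2L), was counted at 450, 455 and 446 CPM with Tip60dn at 48 h and at 382, 393 and 383 CPM at 78 h, against 460 to 509 CPM and 470 to 510 CPM in the controls. It fell by 0.33 log2 at 78 h (adjusted p = 1.56e-04), and the 48 h effect of -0.08 log2 did not pass. Aldolase, encoded by Ald1, rose at 48 h by 0.34 log2 (adjusted p = 0.00176), from 298 ± 6.12 to 376 ± 41.3 CPM, while at 78 h it stood at 279 ± 13.2 and 292 ± 6.51 CPM (adjusted p = 0.458). Pgk and Tpi fell at both durations with differences of -0.04 and -0.11 log2, and hexokinase, Hex-A, rose at both by 0.25 and 0.26 log2. The shift was thus not shared by all enzymes of the pathway.

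Ldh (FBgn0001258, 3L), lactate dehydrogenase, had by far the largest effect of the list at both durations. It stood at 7.73, 23.8 and 9.10 CPM in the 48 h controls and at 213, 247 and 83.8 CPM with Tip60dn, and at 9.38, 6.66 and 9.31 CPM against 49.2, 31.6 and 29.8 CPM at 78 h. All Tip60dn libraries were above their controls, and the 78 h levels were below every 48 h level, of which replicate 3 was the lowest. Ldh rose by 3.74 log2 (SE 0.44, adjusted p = 1.23e-04) and by 2.13 log2 (SE 0.45, adjusted p = 0.00329). The difference of -1.61 (interval -2.99 to -0.22) did not pass after adjustment (adjusted p = 0.629, DESeq2 0.58), and leaving out 1 library gave -2.30 to -1.32.

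Men, AcCoAS and Glyp, of other steps of carbon metabolism, also had a lower effect at 78 h. DESeq2 called each of them and they were chosen with that known, so they do not describe carbon metabolism as a whole. Men and AcCoAS rose at 48 h, whereas Glyp, like Pfk, fell at 78 h alone. Men (FBgn0002719, 3R), malic enzyme, was counted at 40.2, 46.0 and 40.9 CPM against 98.9, 110 and 76.6 CPM at 48 h, and at 41.8, 45.0 and 43.1 CPM against 58.6, 62.4 and 58.6 CPM at 78 h. The groups did not overlap at either duration, and the Tip60dn level was lower at 78 h while the controls stood at the same level. Men rose by 1.16 log2 (adjusted p = 1.13e-05) and 0.47 log2 (adjusted p = 0.00361), a difference of -0.70 (interval -1.02 to -0.38) with an adjusted p of 0.527 in edgeR and 0.00289 in DESeq2.

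AcCoAS (FBgn0012034, 3L), which makes acetyl-CoA from acetate, was counted at 9.40, 11.3 and 7.12 CPM against 22.8, 20.5 and 15.6 CPM at 48 h and at 11.1, 11.3 and 9.44 CPM against 11.4, 9.78 and 9.19 CPM at 78 h. It was raised at 48 h alone: it rose there by 1.08 log2 (adjusted p = 4.66e-04), and the 78 h effect was -0.07 log2 (adjusted p = 0.779) with overlapping groups. The difference was -1.15 log2 (interval -1.68 to -0.62, adjusted p = 0.527 in edgeR, 0.00289 in DESeq2). Glyp, glycogen phosphorylase, stood at 211 ± 14.2 and 197 ± 18.8 CPM at 48 h and at 205 ± 4.77 and 146 ± 6.35 CPM at 78 h, and fell at 78 h by 0.49 log2 (adjusted p = 1.56e-04). Its difference was -0.39 log2 (interval -0.60 to -0.19, adjusted p = 0.542 in edgeR, 0.0406 in DESeq2).

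Mal-B2 (2L), of the maltase family, went the other way. It stood at 14.0, 19.0 and 16.2 CPM against 3.97, 2.59 and 2.77 CPM at 48 h and at 19.2, 17.8 and 18.5 CPM against 6.44, 8.40 and 8.18 CPM at 78 h. Every Tip60dn library was below its controls, and the 78 h ones were above the 48 h ones. Mal-B2 fell by 2.39 log2 (adjusted p = 2.24e-06) and 1.27 log2 (adjusted p = 1.02e-04), with a difference of 1.12 (interval 0.63 to 1.62, adjusted p = 0.468 in edgeR, 0.00109 in DESeq2). The wild type transgene libraries were also low, at 4.00 ± 1.16 and 6.14 ± 1.01 CPM.

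**Figure D4:**
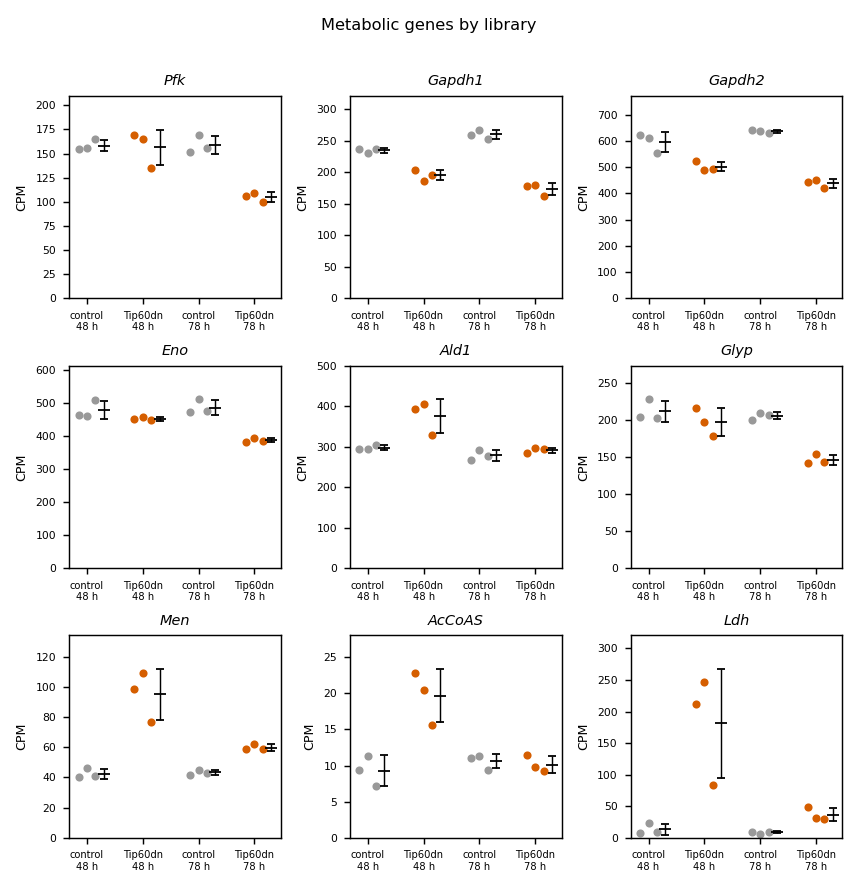
CPM of 9 metabolic genes in each library (points, grey for control and orange for Tip60dn) with the mean and SD of 3 libraries as a bar beside them; the y axes start at 0. The Tip60dn libraries of 78 h are the lowest of each panel for Pfk, Gapdh1, Gapdh2, Eno and Glyp, while those of 48 h are the highest for Ald1, Men, AcCoAS and Ldh, with replicate 3 the lowest of its group in the last 4.

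In Pfk, Eno, Ald1, Glyp, Men, AcCoAS and Ldh, but not in Gapdh1 and Gapdh2, Tip60dn 48 h replicate 3 was the lowest library of its group, on the side of the 78 h libraries. Its part in the results above was not tested beyond leaving it out, which moved the differences of Pfk and Men to -0.68 and -0.83 log2. With wild type Tip60 as the reference in place of the control, which keeps the same Tip60dn libraries, the difference was -0.51 log2 for Pfk, -0.54 for Men, -0.52 for AcCoAS, -0.44 for Glyp, -0.32 for Ald1 and -1.8 for Ldh. For Gapdh1 and Eno it was -0.12 and -0.14 log2. The AcCoAS value drew on 48 h wild type libraries of 7.89, 19.3 and 7.72 CPM, of which replicate 2 stood apart. In the comparison with wild type Tip60 as the reference, 0 of 11173 genes passed with edgeR, with 623 at an unadjusted p under 0.05.

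Of the 22 genes that DESeq2 called, 21 have a symbol, and 8 were called in each of 12 fits that left out 1 library: Men, Pfk, AcCoAS, Mal-B2, CG7567, CG12934, CG5084 and Muc26B. CG7714, which is not among the 22, was also called in each of the 12 fits, at 5.72 to 8.29 log2. The remaining metabolic calls held in fewer, Gapdh1 in 9, Gapdh2 in 6 and Glyp in 3 of 12. A pair of well expressed genes of other function were called too. The Hippo pathway gene kibra (3R) was counted at 71.5, 74.8 and 74.1 CPM against 81.3, 87.1 and 86.1 CPM at 48 h and at 70.4 ± 0.442 CPM against 92.8 to 97.2 CPM at 78 h. It rose by 0.21 and 0.43 log2 with no overlap, and the difference of 0.23 (interval 0.12 to 0.34) had an adjusted p of 0.542 in edgeR and 0.0416 in DESeq2, where 3 of 12 fits without 1 library kept the call.

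Pka-R2 (2R), a regulatory subunit of protein kinase A, stood at 52.1 ± 2.34 and 43.8 ± 1.54 CPM at 48 h and at 50.8 ± 1.57 and 52.3 ± 1.80 CPM at 78 h. It fell at 48 h by 0.25 log2 (adjusted p = 9.93e-04) and its effect at 78 h was 0.04 log2 (adjusted p = 0.487). The difference was 0.29 log2 (interval 0.15 to 0.43, adjusted p = 0.542 in edgeR and 0.0313 in DESeq2). The DESeq2 call of Pka-R2 held in 4 of 12 fits without 1 library.

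Most of the other calls had low counts, apart from Dnaaf3 and FBgn0041607, which has no symbol and stood at 15.4 to 33.3 CPM. CG7567 and CG11470 are neighbours on 3R, at 29587237 to 29588104 and 29588993 to 29589762. CG7567 was counted at 0.443, 0.374 and 0.548 CPM with Tip60dn at 48 h and at 2.55, 3.18 and 1.72 CPM at 78 h, against 0.491 to 0.670 CPM and 0.277 to 0.695 CPM in the controls. All 78 h Tip60dn libraries stood above the rest, and CG7567 rose there by 2.34 log2 (adjusted p = 2.49e-04), with a difference of 2.74 (interval 1.72 to 3.77, adjusted p = 0.447 in edgeR and 2.17e-04 in DESeq2). CG11470 reached 0.818, 1.41 and 0.557 CPM in the same libraries and lay between 0.0702 and 0.179 CPM in the other 9. Its rise at 78 h was 3.25 log2 (adjusted p = 1.93e-04).

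CG12934 (2R) was below the controls at 48 h and above them at 78 h. The controls held 1.11, 0.892 and 0.702 CPM and the Tip60dn libraries 0.255, 0.155 and 0.188 CPM at 48 h, and at 78 h these were 0.773, 0.509 and 0.766 CPM and 2.03, 5.02 and 0.874 CPM. It fell by 2.16 log2 at 48 h (adjusted p = 0.00703) and rose by 1.95 log2 at 78 h (adjusted p = 0.00832), with a difference of 4.11 (interval 2.54 to 5.70, adjusted p = 0.447 in edgeR and 7.09e-05 in DESeq2). Without 1 library in turn the difference was 3.25 to 4.52. CG5084 (2R) and Muc26B (2L), a mucin-like gene, rested on 10 and 1 counts in the 3 Tip60dn libraries of 48 h, and reached 2.32 ± 2.16 and 0.740 ± 0.494 CPM in those of 78 h.

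In a set of digestive enzyme genes 1 library stood far above the rest of its group. Jon66Ci (3L), of the Jonah family of midgut serine proteases, was counted at 0.357, 49.9 and 1.29 CPM in the Tip60dn libraries of 78 h, and the trypsin gene epsilonTry (2R) at 0.0752, 23.5 and 0.583 CPM. The lipase gene mag, magro, stood at 0.0188, 20.1 and 0.672 CPM there, and Jon99Fi at 0.0376, 16.3 and 1.04 CPM. Replicate 2, the lowest library on the second principal component, was the highest in all 4, by more than 4-fold. All 4 passed at 78 h, with overlapping groups for mag, and 0 of the 4 did so in limma-voom (adjusted p = 0.344 to 0.444). Without that library Jon99Fi and epsilonTry still passed in edgeR (adjusted p = 0.0332 and 0.0195), and Jon66Ci and mag did not (adjusted p = 0.0942 and 0.0841). The difference between durations stayed above 0 without it, at 4.15 log2 for Jon66Ci, 5.35 for mag, 5.47 for epsilonTry and 7.91 for Jon99Fi, beside 8.54, 9.68, 10.08 and 11.32 with it, and none passed the edgeR test in either case. The 78 h controls held 0 to 0.304 CPM of these 4 genes, and some were higher in the 48 h controls, up to 3.35 CPM for Jon66Ci. CG4734 (2R) had 0 counts in the 78 h controls and 0.0376, 7.78 and 0.253 CPM in the Tip60dn libraries of 78 h, so no fold is given. CG6933 and CG17826, with 0.809, 5.89 and 0.507 CPM and 0.169, 2.26 and 0.152 CPM in these libraries, had the same high replicate.

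For salivary gland markers 1 control library stood apart. The summed level of 10 genes reached 3059 CPM in control 78 h replicate 1, while the other 78 h controls held 229 and 226 CPM and 178 to 355 CPM in the 9 remaining libraries. The glue protein gene Sgs3 (3L) was counted at 839, 16.5 and 6.12 CPM in the 78 h controls and at 10.3, 32.4 and 57.0 CPM with Tip60dn, and Sgs7 at 568, 15.2 and 7.11 CPM and 6.78, 39.9 and 15.3 CPM. The median difference of the list was -3.73 log2 with all libraries and 0.19 log2 without that control, and Sgs3 moved from -3.53 to 1.14 log2. No salivary gland gene passed the test of the difference.

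**Figure D5:**
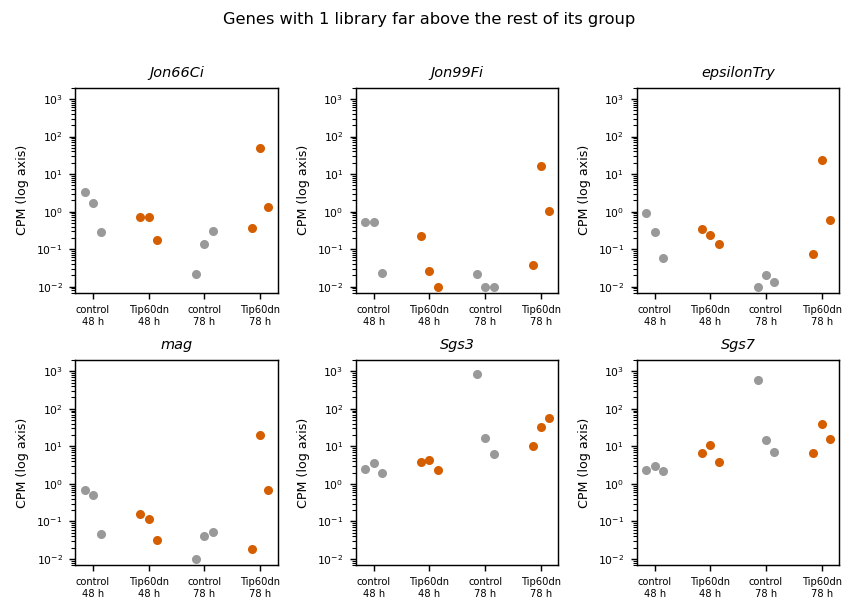
CPM on a log axis of 6 genes in each library (points, grey for control and orange for Tip60dn), with values under 0.01 drawn at 0.01. The middle point of the Tip60dn 78 h group is the highest of all 12 for Jon66Ci, Jon99Fi, epsilonTry and mag, at 49.9, 16.3, 23.5 and 20.1 CPM, and the first point of the 78 h controls is the highest for Sgs3 and Sgs7, at 839 and 568 CPM.

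Dnaaf3 (2R), an assembly factor for dynein arms of cilia, had 0 counts in all 48 h controls and had 12 counts in the 78 h controls. The Tip60dn libraries held 10.1, 10.7 and 8.69 CPM at 48 h and 5.52, 7.34 and 7.11 CPM at 78 h. Dnaaf3 was above the controls in every Tip60dn library, and the fold at 48 h has no finite value, so the 12 control counts decide the difference, which DESeq2 called (adjusted p = 0.0406) and edgeR did not (adjusted p = 0.447). Between the Tip60dn groups the change was -0.56 log2 (adjusted p = 0.529).

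Neuronal genes did not move together. Of 27 neuronal genes 11 rose at 48 h and 14 at 78 h, 11 at both (21.6%, 22.8% and 16.5% of all genes), with 1 that fell at each, and the median effect was 0.73 and 0.84 log2. The gene that fell was elav (X), the RNA-binding protein of neurons, from 65.7, 67.5 and 67.7 CPM to 31.6, 30.3 and 32.5 CPM at 48 h and from 66.1, 62.3 and 63.4 CPM to 33.8, 27.9 and 32.7 CPM at 78 h. It fell by 1.09 and 1.02 log2 (adjusted p = 4.75e-07 and 7.6e-07), and 27.9% of its exons are shared with lncRNA:enrr on the same strand. The synaptic vesicle release factor unc-13 rose by 1.40 and 1.58 log2, with a difference of 0.18 (interval -0.04 to 0.39). In the dpr, DIP, beat and side families of neuronal surface proteins, 13 of 30 rose at 48 h and 19 at 78 h (21.6% and 22.8% of all genes), and 0 fell. The neuron and glia markers, which include elav, had a lower summed level with Tip60dn, at 333 to 383 CPM in the controls against 234 to 240 CPM at 48 h and 348 to 351 CPM against 233 to 250 CPM at 78 h. Of 9 tested, 2 rose and 2 fell at 48 h and 2 rose and 3 fell at 78 h, with a median effect of -0.41 and -0.02 log2.

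Markers of some other cell types were higher with Tip60dn at both durations, and others were not. Of 13 hemocyte markers 9 rose at 48 h and 9 at 78 h, 7 at both (21.6%, 22.8% and 16.5% of all genes), and their summed level over 14 genes was 1079 to 1203 CPM in the 48 h controls and 1775 to 1952 CPM with Tip60dn, then 1132 to 1243 CPM and 1434 to 2097 CPM at 78 h. Most of that sum came from a single member, Ance, which stood at 851 and 1168 CPM at 48 h and at 845 and 1168 CPM at 78 h, for control and Tip60dn. Ance rose by 0.46 and 0.47 log2. Glt, which encodes the basement membrane protein glutactin, rose by 1.08 and 1.12 log2. The hemocyte list had a median difference of -0.03 log2 and 1 member, PPO2, the prophenoloxidase of crystal cells, at an unadjusted p under 0.05 (-1.30 log2, interval -2.42 to -0.18). Tracheal markers rose in 6 of 7 genes at each duration, and myoblast and muscle markers in 7 and 9 of 20, where 21.6% and 22.8% of all genes rose. Of 10 fat body markers 1 rose and 1 fell at each duration, and their summed level overlapped, at 373 to 515 CPM against 353 to 405 CPM at 48 h and 570 to 797 CPM against 447 to 720 CPM at 78 h. The part of these cells in the gene groups above was not tested.

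Most of the remaining lists showed few members with a shift. Of 28 glutathione transferases, 4 (14.3%) had an unadjusted p under 0.05 with a lower effect at 78 h and 1 (3.57%) with a higher one. The shares over all genes were 3.81% and 3.46%. The effect was lower at 78 h for 21 of 28, and the median effect of the list was 0.01 and -0.25 log2. Cuticle protein genes rose in 22 of 63 at 48 h and 25 at 78 h (21.6% and 22.8% of all genes), with a median difference of 0.27 log2, but only 2 of 63 had an interval inside 0.5 log2 either way. Innate immunity genes rose in 2 of 23 at 48 h and 8 at 78 h (21.6% and 22.8% of all genes), among them Tl, the Toll receptor, which rose by 0.36 and 0.53 log2. In the Dpp pathway 2 of 15 genes had an unadjusted p under 0.05 with a higher effect at 78 h, the type I receptor gene sax (effects of -0.18 and -0.05 log2) and the Smad gene Mad (effects of -0.24 and -0.11 log2). The ecdysone-induced factor Eip93F stood at 1.60 ± 0.106 and 1.45 ± 0.373 CPM at 48 h and at 1.10 ± 0.154 and 2.12 ± 0.325 CPM at 78 h, where it rose by 0.94 log2 (adjusted p = 0.00373). Its difference was 1.09 log2 (interval 0.44 to 1.74, adjusted p = 0.542).

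Wing patterning and chromatin genes were bounded more tightly. Of 30 wing and notum transcription factors 11 rose at 48 h and 16 at 78 h (21.6% and 22.8% of all genes), and 28 had an interval inside 0.5 log2 either way. The 2 most abundant wing disc markers, zfh2 and ci, did not pass at either duration, with differences of 0.09 (interval -0.10 to 0.28) and 0.01 (interval -0.16 to 0.18). In the Polycomb group 10 of 18 fell at 48 h and 9 at 78 h, 9 at both, and in the Trithorax group 6 of 18 fell at 48 h and 5 at 78 h, where 20.7% and 21.7% of all genes fell. Of 15 NuA4 genes other than Tip60, 4 rose and 5 fell at both durations (16.5% and 17% of all genes), and 14 had an interval inside 0.5 log2. Among 9 dosage compensation genes the effect was higher at 78 h for all 9, with msl-3, a subunit of the male-specific complex, at an unadjusted p of 0.0286 (0.18 log2). The share of male discs is not given in the labels, and its part in these values was not tested.

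Opposite calls were rare. Of 3658 genes called at both durations, 5 had opposite directions: sqz, Tre1, CG4619, CG12934 and FBgn0041607, the last without a symbol. The zinc finger factor gene sqz (3R) stood at 48.1, 47.1 and 52.5 CPM against 44.4, 44.9 and 46.0 CPM at 48 h and at 45.1, 46.1 and 44.8 CPM against 47.1, 49.6 and 51.7 CPM at 78 h. It fell by 0.13 log2 (adjusted p = 0.0476) and rose by 0.13 log2 (adjusted p = 0.0464), with each call close to the threshold, and was called at 48 h in 8 and at 78 h in 5 of 21 alternatives. Tre1 (X), a receptor that guides germ cells, fell by 0.13 log2 (adjusted p = 0.0446) and rose by 0.13 log2 (adjusted p = 0.0494) in the same way. CG4619 (2L), with 44.8% of its exons opposite CG5853, rose by 0.15 log2 at 48 h (adjusted p = 0.0392), with overlapping groups, and fell by 0.18 log2 at 78 h (adjusted p = 0.0198). It was called at 48 h in 7 and at 78 h in 17 of 21 alternatives.

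Comparisons within an arm gave few calls. Between the 78 h and 48 h controls 0 genes passed with edgeR (0%), with 618 at an unadjusted p under 0.05 and 23 called by DESeq2, and between the Tip60dn groups 4 passed (0.0367%). The 4 were CG7567 (2.45 log2), Mal-B2 (1.30 log2), Pfk (-0.58 log2) and SREBP (-0.24 log2), the sterol regulatory element-binding protein of lipid synthesis, each with an adjusted p of 0.0396. SREBP was counted at 268, 275 and 262 CPM at 48 h and at 227, 223 and 231 CPM at 78 h in the Tip60dn libraries, with no overlap, and at 207, 207 and 215 CPM and 198, 209 and 201 CPM in the controls. The durations were deposited as separate tables, so duration and table cannot be told apart within an arm.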

How the data were processed

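Polyadenylated RNA of pooled wing discs was sequenced from directional libraries, per the labels' protocols. The authors deposited raw gene counts, with a separate table per duration. The submitters' processing notes name the genome build BDGP6 and the tools edgeR 3.13.4, limma, featureCounts and FastQC. Not given in the sources used here are the aligner, whether counting used strand, the annotation release and how multiply mapped reads were treated. Counts of overlapping genes, antisense pairs and close paralogs are therefore uncertain.

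The tables were joined on FlyBase identifier (17559 genes). Symbols and BDGP6 positions came from Ensembl release 115 and a name table for 17253 identifiers; the other 306, with 5.69% to 6.01% of a library's counts, were tested without a name. The 12 libraries were fitted with 4 group means in R 4.3.3 and edgeR 4.0.16: filterByExpr with a minimum of 10 counts, TMM scaling, the quasi-likelihood F test, two-sided, and Benjamini-Hochberg adjustment over 10905 genes. Calls are genes with an adjusted p under 0.05. The common biological coefficient of variation was 0.187. CPM are counts per 1000000 TMM-scaled library counts, with SD over 3 libraries. SE and 95% intervals of log2 effects came from the fitted weights and moderated dispersion. DESeq2 1.42.0 (472 genes with adjusted p NA, kept NA) and limma-voom 3.58.1 were alternatives. No 2 libraries were identical. The fits were tested on simulated data.

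Named genes were Tip60, genes called in the test of the difference (none), the 6 largest effects called in 1 direction at both durations with an interval inside 0.5 log2 and at least 5 CPM, the 2 most abundant members of each marker list, and upd1, upd2, upd3, E2f1, CycE, stg, dap, rpr, Ldh, Ilp8 and puc. All other named genes were chosen after their values were seen. The comparison, the 48 gene lists and these rules were chosen with earlier results of these data known. Lists are given by counts and medians, with no test; 747 of 812 written entries matched a symbol. Sequences are not used here.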

Additional observations from a re-analysis of the deposited data

Results flagged for a closer look

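For 4 named genes the Tip60dn libraries all lay on one side of the controls at 48 h and all on the other side at 78 h. The difference of effects, tested in the edgeR fit, was 4.11 log2 for CG12934 (adjusted p = 0.447), 8.71 log2 for Muc26B (adjusted p = 0.447, from 1 count in the 48 h Tip60dn libraries), 0.25 log2 for sqz and 0.26 log2 for Tre1 (adjusted p = 0.542 for both), so none passed. Over all genes tested 17 had libraries on opposite sides in this way (0.156%), 4 above at 48 h and 13 below, beside 4206 on the same side at both durations. DESeq2 called a difference between the durations for 22 genes where edgeR called 0. Outside the 12 libraries compared, Dnaaf3 stood at 6.36 CPM in the 48 h and 6.45 CPM in the 78 h libraries with the wild type transgene, above the 0 and 12 counts of the controls.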

How the results depend on the processing

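The counts called at 48 h (3745 to 4858), at 78 h (3756 to 5041) and in the same direction at both (2974 to 3843) stayed within 1.5 times their values under every alternative run. Genes called in the difference with edgeR numbered 0 to 4 without 1 library, 4 without Tip60dn 48 h replicate 3. DESeq2 gave 22, and without 1 library, tried after seeing the data, 12 to 98, with 20 without Tip60dn 48 h replicate 1, 31 without control 78 h replicate 3, 98 without Tip60dn 78 h replicate 1, 51 without Tip60dn 48 h replicate 3, 43 without control 48 h replicate 2, 38 without control 48 h replicate 3, 33 without Tip60dn 78 h replicate 3, 13 without control 78 h replicate 1 and 12 without control 78 h replicate 2. Between controls DESeq2 called 23. Between Tip60dn groups the 4 calls became 8 with TMM within each table, 134 in DESeq2, 0 in limma-voom, 13 with no filter, 2 at 5 CPM or more, 15 with all 18 libraries, and 0 to 27 without 1 library, 27 without Tip60dn 48 h replicate 3, 19 without Tip60dn 78 h replicate 1 and 17 without control 48 h replicate 3. The 5 opposite calls, whose alternatives were added after seeing the data, became 2 with median-ratio size factors, 2 in limma-voom, 3 with no filter, 1 at 5 CPM or more, and 1 to 6 without 1 library. The cause of these moves was not tested.

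Same-numbered Tip60dn and control libraries had residual correlations of 0.11, 0.03 and 0.07 at 48 h and -0.05, -0.07 and -0.05 at 78 h, so they were read as sharing only a number. At 48 h each correlated best with its own number, at 78 h none did. With a replicate block the difference gave 0 calls and the Tip60dn groups 0. With a replicate block within each duration these were 1 (Jon99Ciii, 9.12 log2, adjusted p = 0.00552) and 0, and the controls gave 6.

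Of 84 named genes, 29 changed the sign of the difference under some alternative, none with a call in either fit. Of 1008 list medians 904 moved by less than the spread between libraries. Genes under 5 CPM had intervals several times wider than those of better expressed genes, and the parts of depth and of spread between libraries in this were not tested.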

Other observations

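The interaction of the wild type transgene with duration, which shares the control libraries, gave 0 calls of 11173 genes with edgeR and 461 at an unadjusted p under 0.05. For Pfk and Men its difference between durations was -0.07 and -0.16 log2, beside -0.58 and -0.70 log2 for the dominant negative against the same controls. For Ald1 it was 0.05 log2 beside -0.27 log2. For AcCoAS it was -0.63 log2 beside -1.15 log2, but the 48 h wild type libraries held 7.89, 19.3 and 7.72 CPM. Replicate 2 stood apart there, so no likeness or contrast is drawn from AcCoAS. The 5 genes with called effects in opposite directions were all within 0.5 log2 of the controls at both durations, except CG12934.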
